A study of Mus musculus with 12 samples.

Results

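Embryonic globin and erythroid gene expression was followed in mouse limbs with and without Lmx1b, through the probe sets of 9 listed genes: the globins Hbb-bh1, Hbb-y and Hba-x, the regulators Klf1 and Gata1, the heme enzyme Alas2, the chaperone Ahsp, the receptor Epor and the membrane transporter Slc4a1. The members were listed by gene name, with earlier results of these data known, and every measured member was kept whatever its values. For 8 of them, 14 probe sets named that gene alone; Ahsp was not analysed here. They were read among 18193 genes, each represented by its brightest probe set, and all values are log2 expression levels. A gene is said to have risen or fallen, or to have been called, where its limma p, adjusted by Benjamini-Hochberg over all these genes, was under 0.05. Total RNA from limbs of C57BL/6 mouse embryos was hybridised to 12 Affymetrix Mouse Genome 430 2.0 arrays. The 6 groups had 2 arrays each: Lmx1b -/- (KO) limbs and Lmx1b +/+ (WT) limbs at 11.5, 12.5 and 13.5 days post coitum (dpc). Lmx1b encodes the LIM homeodomain factor that gives the limb its dorsal identity. Fore- and hindlimb RNA was pooled, from 6 limbs per sample by the sample protocol and from 6, 3 and 6 limbs at the 3 stages by the series text, and duplicates came from different embryos. The limb bud with its girdle was taken at 11.5 and 12.5 dpc, but only the distal limb at 13.5 dpc. At 13.5 dpc, stage and dissected part therefore cannot be told apart. Scanning was also done separately for each stage. A scanning batch is thus mixed with stage in every stage comparison below, including 12.5 against 11.5 dpc. The part of scanning in the stage differences was not tested.

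In the mouse, primitive red cells arise in the yolk sac, enter the circulation as large nucleated cells and mature there over the days studied here. They carry hemoglobins built from the embryonic β-like chains βh1 (Hbb-bh1) and εy (Hbb-y) and the α-like chain ζ (Hba-x), with a switch within the primitive lineage away from βh1 and ζ and towards εy and the α chains. Definitive red cells from the fetal liver, which make adult globins, then enter the blood. The limb is not known as a site of red cell formation. In these bulk samples, fewer red cells and less RNA per red cell cannot be told apart.

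The arrays were first checked against their labels. On the brighter Lmx1b probe set, 1441729_at, levels ran between 5.60 and 8.88 in KO arrays and between 9.28 and 10.27 in WT arrays. The highest KO value was that of KO replicate 2 at 13.5 dpc. On the dim probe set 1421769_at, levels were 5.46 to 5.88 in KO arrays and 5.61 to 5.98 in WT arrays. No source used here says whether either probe set lies in the deleted part. Limb markers moved with stage: Pitx1, a hindlimb factor, was between 5.76 and 6.26 in KO arrays and between 5.80 and 6.28 in WT arrays up to 12.5 dpc, but at 9.88 and 10.30 in KO arrays and 10.17 and 10.06 in WT arrays at 13.5 dpc. Tbx5, a forelimb factor, stood at 9.47 or more in all 12 arrays. Pitx1 changed with stage in both genotypes although fore- and hindlimb RNA is described as pooled. A different mix of limb types cannot be told apart from stage. The part of limb type in the stage differences below was not tested.

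KO replicate 2 of 13.5 dpc stood apart from the other arrays of its stage and touches every 13.5 dpc comparison. For the 2726 other genes called between WT limbs of 13.5 and 11.5 dpc, the position of an array was set so that the WT mean is 0 at 11.5 dpc and 1 at 13.5 dpc. By the median over these genes, KO replicates 1 and 2 lay at 0.921 and 0.461 at 13.5 dpc, against 0.98 and 1.02 in WT. At 12.5 dpc they lay at 0.441 and 0.212, against 0.365 and 0.387 in WT. The root mean square spread between replicates was widest in KO limbs of 12.5 dpc (0.356). It was 0.267 in KO limbs of 13.5 dpc and 0.14 to 0.237 in the other groups. Meis1, a factor of the proximal limb, had levels of 7.76 and 9.46 in KO limbs and 7.12 and 7.01 in WT limbs at 13.5 dpc. Both KO replicates 2 were therefore also left out together, and the calls of members between WT stages that this changed are given with each gene. Between WT stages it changes only the spread, which is pooled over all groups, and the adjustment.

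Hbb-bh1, the βh1 globin, was the member with the widest range. Its brightest probe set, 1437810_a_at, read 13.27 and 13.34 in KO limbs against 13.16 and 13.41 in WT limbs at 11.5 dpc. At 12.5 dpc it read 12.90 and 13.86 in KO limbs and 13.33 and 13.36 in WT limbs. At 13.5 dpc it read 10.48 and 12.91 in KO limbs and 9.05 and 8.40 in WT limbs. All arrays up to 12.5 dpc thus read 12.90 or more, and both WT arrays of 13.5 dpc were below every other array, with the KO arrays of that stage above them and apart from each other. Hbb-bh1 fell by 4.56 ± 0.60 (SE) on the log2 scale, 23.6-fold, between 11.5 and 13.5 dpc in WT limbs (limma adjusted p = 0.00352). Between 12.5 and 13.5 dpc it fell by 4.62 ± 0.60 (adjusted p = 0.000994), the lowest difference of all 18193 genes in that comparison. The call held without each of the 12 arrays in turn, with adjusted p up to 0.0427 from 11.5 dpc and 0.0137 from 12.5 dpc. The other probe sets, 1450736_a_at and 1437990_x_at, gave differences of -4.14 and -4.19 between 13.5 and 11.5 dpc in WT limbs.

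**Figure D1:**
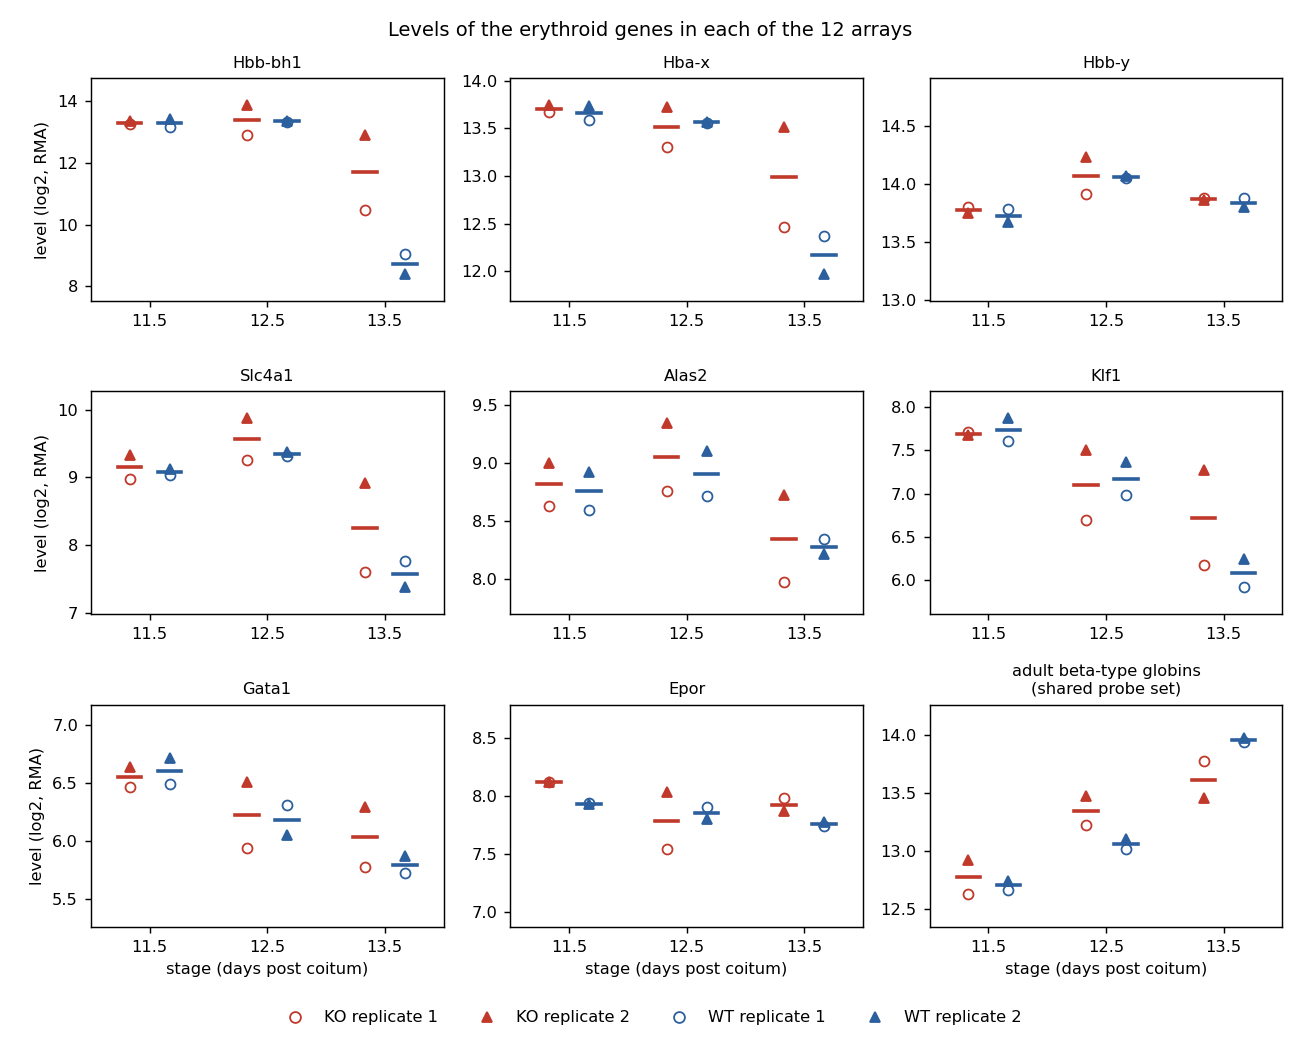
Levels (log2, RMA) of the 8 measured erythroid genes and of the probe set shared by adult β-type globin genes, by stage in days post coitum; each point is 1 array, bars are group means, KO in red left of WT in blue, and each panel has its own scale. Hbb-bh1 stays between 12.90 and 13.86 through 12.5 dpc and reads 10.48 and 12.91 in KO and 9.05 and 8.40 in WT limbs at 13.5 dpc, while Hbb-y stays between 13.67 and 14.23 throughout.

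Hbb-y, the εy globin and the coding gene next to Hbb-bh1 in the β-globin cluster, stayed within a narrow range. Its brightest probe set was 1436823_x_at. Levels were 13.80 and 13.75 in KO limbs and 13.78 and 13.67 in WT limbs at 11.5 dpc, then 13.91 and 14.23 in KO limbs and 14.05 and 14.07 in WT limbs at 12.5 dpc. At 13.5 dpc they were 13.88 and 13.86 in KO limbs and 13.88 and 13.80 in WT limbs. All 12 arrays lay within 13.67 and 14.23, and the brightest value on any array was 14.45 to 14.69, so the probe set had little room above it. The WT difference between 13.5 and 11.5 dpc was 0.12 with a 95% interval from -0.13 to 0.36 (adjusted p = 0.525). WT means at 11.5 and 13.5 dpc were 13.82 and 13.67 on 1450621_a_at, the opposite direction, and 13.72 and 13.82 on 1436717_x_at. At 13.5 dpc 1450621_a_at read 13.66 and 13.93 in KO limbs and 13.68 and 13.66 in WT limbs. The difference between 12.5 and 11.5 dpc in WT limbs was 0.34 ± 0.11 (adjusted p = 0.0544), beside 0.17 and 0.13 for the probe sets 1450621_a_at and 1436717_x_at. It passed the threshold with the dim genes left out, in 4 other settings, and without either KO array of 12.5 dpc (adjusted p = 0.0159). Without both KO replicates 2 it passed too (adjusted p = 0.0110), as did the WT difference of -0.22 between 13.5 and 12.5 dpc (adjusted p = 0.0452).

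Hba-x, the ζ globin, lies next to the adult gene Hba-a1. Its probe set 1448716_at read 13.67 and 13.74 in KO limbs and 13.59 and 13.73 in WT limbs at 11.5 dpc, and 13.30 and 13.72 in KO limbs and 13.56 and 13.57 in WT limbs at 12.5 dpc. At 13.5 dpc it read 12.46 and 13.51 in KO limbs and 12.37 and 11.97 in WT limbs. Both WT arrays were then lower than any array of the earlier stages. In WT limbs it fell by 1.50 ± 0.28 on the log2 scale, 2.82-fold, against 11.5 dpc (adjusted p = 0.00971) and fell by 1.40 ± 0.28 against 12.5 dpc (adjusted p = 0.00598). The first call was lost without either WT array of 11.5 dpc or WT replicate 2 of 13.5 dpc (adjusted p up to 0.0871), and the second without WT replicate 2 of 13.5 dpc (adjusted p = 0.0581).

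The 250 bases before the starts of the ζ and εy genes are shown for an embryonic globin that was called lower and for one that was not (RefSeq, GRCm38.p6; Hba-x at chr11:32276350-32276599, plus strand; Hbb-y at chr7:103853208-103853457, minus strand; 5′ to 3′). Capitals mark, on either strand, GATA words, spelled AGATAA or AGATAG or TGATAA or TGATAG, and KLF words, spelled CCNCNCCC. These are the letters that GATA and KLF factors are known to bind.
Hba-x: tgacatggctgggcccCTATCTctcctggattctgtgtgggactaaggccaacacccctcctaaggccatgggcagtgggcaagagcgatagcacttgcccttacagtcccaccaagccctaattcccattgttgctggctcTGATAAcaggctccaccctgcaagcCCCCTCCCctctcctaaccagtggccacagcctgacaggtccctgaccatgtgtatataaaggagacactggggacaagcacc
Hbb-y: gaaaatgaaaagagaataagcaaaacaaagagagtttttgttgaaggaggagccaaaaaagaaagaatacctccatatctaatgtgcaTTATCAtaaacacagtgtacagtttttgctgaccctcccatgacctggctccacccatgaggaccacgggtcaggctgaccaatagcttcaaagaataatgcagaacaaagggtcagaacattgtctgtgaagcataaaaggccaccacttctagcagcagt
The Hba-x window held 2 GATA words and 1 KLF word, at 83 to 76 bases before the start, and the Hbb-y window held 1 GATA word and no KLF word of this spelling. Of 32851 RefSeq windows of this length, 26.5% held a GATA word and 45.9% a KLF word. A match describes letters only.

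Klf1, the KLF factor that switches on many red cell genes, was measured by the probe set 1418600_at. It read 7.71 and 7.68 in KO limbs and 7.61 and 7.87 in WT limbs at 11.5 dpc, and 6.70 and 7.51 in KO limbs and 6.98 and 7.37 in WT limbs at 12.5 dpc. At 13.5 dpc it read 6.18 and 7.27 in KO limbs and 5.92 and 6.24 in WT limbs. In WT limbs it fell by 1.67 ± 0.33 against 11.5 dpc (3.18-fold, adjusted p = 0.0130) and by 1.10 ± 0.33 against 12.5 dpc (adjusted p = 0.0365). The difference of -0.57 between 12.5 and 11.5 dpc did not pass (adjusted p = 0.262), but did without both KO replicates 2 (adjusted p = 0.0279). Leaving out any 1 WT array of 11.5 or 13.5 dpc ended the first call (adjusted p up to 0.107), and the second was lost in 8 of 12 such repeats (adjusted p up to 0.178).

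Gata1, the GATA factor required for red cell maturation, lay near 6.28, the median of all values on the arrays. Its probe set 1449232_at read 6.46 and 6.64 in KO limbs and 6.49 and 6.71 in WT limbs at 11.5 dpc, and 5.94 and 6.51 in KO limbs and 6.31 and 6.05 in WT limbs at 12.5 dpc. At 13.5 dpc it read 5.77 and 6.29 in KO limbs and 5.72 and 5.87 in WT limbs. It fell by 0.80 ± 0.21 in WT limbs between 11.5 and 13.5 dpc (adjusted p = 0.0306), a call that any 1 WT array of these stages ended when left out (adjusted p up to 0.198). Without both KO replicates 2, its WT differences of -0.42 between 12.5 and 11.5 dpc and -0.39 between 13.5 and 12.5 dpc were also called (adjusted p = 0.0342 and 0.0380).

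The windows of these 2 regulators, which fell together in WT limbs, are shown with the same capitals (RefSeq, GRCm38.p6; Klf1 at chr8:84901732-84901981, plus strand; Gata1 at chrX:7967911-7968160, minus strand; 5′ to 3′).
Klf1: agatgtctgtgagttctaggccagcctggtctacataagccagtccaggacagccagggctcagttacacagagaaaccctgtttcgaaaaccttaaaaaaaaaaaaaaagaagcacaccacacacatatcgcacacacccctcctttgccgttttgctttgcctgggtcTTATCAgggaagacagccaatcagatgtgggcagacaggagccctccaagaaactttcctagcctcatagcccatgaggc
Gata1: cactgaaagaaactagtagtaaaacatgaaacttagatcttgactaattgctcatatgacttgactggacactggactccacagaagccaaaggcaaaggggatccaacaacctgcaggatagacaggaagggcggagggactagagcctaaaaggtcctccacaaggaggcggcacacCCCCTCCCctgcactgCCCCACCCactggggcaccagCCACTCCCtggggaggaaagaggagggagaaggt
The Klf1 window held 1 GATA word, 80 to 75 bases before the start, and no KLF word; the Gata1 window held 3 KLF words and no GATA word. The Alas2 and Epor windows each held 1 GATA word and 4 KLF words, some of them overlapping. No window was given for Hbb-bh1 or Slc4a1 here.

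Alas2, the red cell form of the first enzyme of heme synthesis, showed smaller differences. Its probe set 1451675_a_at read 8.63 and 9.0 in KO limbs and 8.59 and 8.92 in WT limbs at 11.5 dpc, 8.76 and 9.34 in KO limbs and 8.71 and 9.10 in WT limbs at 12.5 dpc, and 7.97 and 8.72 in KO limbs and 8.34 and 8.21 in WT limbs at 13.5 dpc. Both WT arrays of 13.5 dpc lay below all WT arrays of earlier stages. The WT differences of -0.48 ± 0.26 from 11.5 dpc and -0.63 ± 0.26 from 12.5 dpc did not pass (adjusted p = 0.252 and 0.107), and without both KO replicates 2 the second did (adjusted p = 0.0237).

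Epor, the erythropoietin receptor, had the narrowest range of the members after Hbb-y. Its probe set 1423344_at read 8.12 in both KO arrays and 7.94 and 7.93 in WT arrays at 11.5 dpc, 7.54 and 8.04 in KO limbs and 7.91 and 7.80 in WT limbs at 12.5 dpc, and 7.98 and 7.87 in KO limbs and 7.74 and 7.78 in WT limbs at 13.5 dpc. The WT difference between 13.5 and 11.5 dpc was -0.17 with a 95% interval from -0.48 to 0.13 (adjusted p = 0.443).

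Slc4a1, the band 3 anion exchanger of the red cell membrane, was read on the probe set 1416464_at. Its levels were 8.97 and 9.33 in KO limbs and 9.04 and 9.12 in WT limbs at 11.5 dpc, 9.26 and 9.87 in KO limbs and 9.32 and 9.37 in WT limbs at 12.5 dpc, and 7.60 and 8.92 in KO limbs and 7.76 and 7.38 in WT limbs at 13.5 dpc. Both WT arrays of 13.5 dpc were below all arrays of the earlier stages. In WT limbs it fell by 1.51 ± 0.35 against 11.5 dpc (2.85-fold, adjusted p = 0.0209) and fell by 1.78 ± 0.35 against 12.5 dpc (3.43-fold, adjusted p = 0.00589). The first call was lost without any 1 WT array of 11.5 or 13.5 dpc (adjusted p up to 0.143) and the second without WT replicate 2 of 13.5 dpc (adjusted p = 0.0549). On 1416464_at the group means were highest at 12.5 dpc, and on 1434502_x_at they were highest at 11.5 dpc (9.34 in KO and 9.39 in WT limbs, against 9.19 in KO and 8.99 in WT limbs at 12.5 dpc). The probe set 1434502_x_at gave -2.04 and the dim 1431743_a_at gave -0.39 between 13.5 and 11.5 dpc.

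Between 13.5 and 11.5 dpc in WT limbs, 5 of 8 members fell (Hbb-bh1, Hba-x, Klf1, Slc4a1 and Gata1) and none rose, while 9.27% of all genes fell in that comparison. The median difference was -1.15 over the members and -0.01 over all genes. Between 13.5 and 12.5 dpc, 4 of 8 fell (without Gata1), against 10.8% of all genes. Between 12.5 and 11.5 dpc none of the 8 was called by limma, against 19.8% of all genes in either direction, and 1 member had an unadjusted p under 0.05. Leaving out both KO replicates 2 of 12.5 and 13.5 dpc left these WT differences as they were. More members then passed in both comparisons with 12.5 dpc, but so did more of all genes.

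The stage differences were also read in KO limbs. Between 13.5 and 11.5 dpc none of 8 was called, where 0.484% of all genes fell, and 5 members had an unadjusted p under 0.05. Hbb-bh1 differed by -1.61 ± 0.60 (adjusted p = 0.195), Klf1 by -0.97 ± 0.33 (adjusted p = 0.168) and Slc4a1 by -0.89 ± 0.35 (adjusted p = 0.211). Between 13.5 and 12.5 dpc, Slc4a1 alone fell, by 1.30 ± 0.35 (adjusted p = 0.0290), where 8.22% of all genes fell. That call was lost in several settings, among them the mean of the probe sets (-0.62) and the fit without KO replicate 1 of 13.5 dpc (-0.65). Leaving out KO replicate 2 of 13.5 dpc alone leaves a single KO array at that stage. The differences from 11.5 dpc were then -2.83 for Hbb-bh1, -1.55 for Slc4a1, -1.515 for Klf1 and -1.24 for Hba-x. They were -0.85 for Alas2, -0.79 for Gata1, -0.14 for Epor and 0.11 for Hbb-y. Members were called lower in that fit, so the lack of calls in KO limbs depended on this array. More of all genes were called in that fit too, so the 0.484% is no background for it. Without both KO replicates 2 these differences were the same, and members were again called lower. Between 12.5 and 11.5 dpc none was called in KO limbs, where 16.8% of all genes were, with 2 members at an unadjusted p under 0.05.

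**Figure D2:**
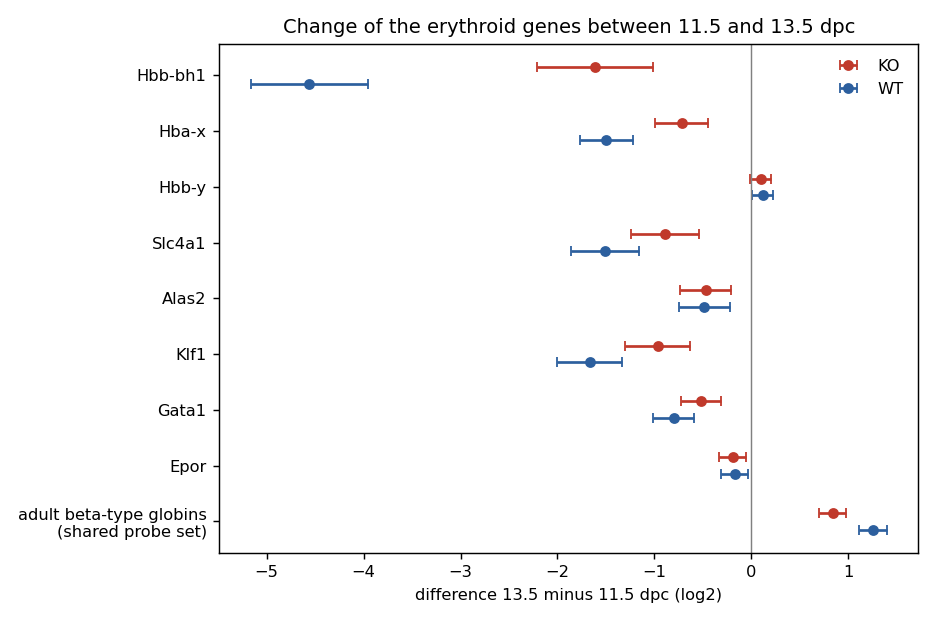
Difference between 13.5 and 11.5 dpc (log2) for each measured erythroid gene and for the probe set shared by adult β-type globin genes, KO in red above WT in blue; points are limma estimates and bars are standard errors. WT Hbb-bh1 sits at -4.56 and KO Hbb-bh1 at -1.61, both Hbb-y points sit near 0, and the adult probe set lies to the right of 0 in both genotypes.

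The adult globin genes have near-identical copies, and their bright probe sets are each annotated to several of them. The probe set of the adult β-type genes, 1417184_s_at, read 12.63 and 12.92 in KO limbs and 12.66 and 12.74 in WT limbs at 11.5 dpc, 13.22 and 13.47 in KO limbs and 13.01 and 13.10 in WT limbs at 12.5 dpc, and 13.77 and 13.45 in KO limbs and 13.94 and 13.97 in WT limbs at 13.5 dpc. It rose in WT limbs by 1.25 ± 0.14 between 11.5 and 13.5 dpc (adjusted p = 0.00315, over all 45037 probe sets that are not controls). At 13.5 dpc KO replicate 2 was the array with the highest Hbb-bh1 and the lowest adult β-type level, though all 4 adult values lay within 13.45 and 13.97. Both KO arrays lay below both WT arrays on this probe set, as they did for 22.3% of all genes. The KO minus WT difference of -0.345 did not pass. Of the adult α-type probe sets, 1417714_x_at rose by 0.73 ± 0.12 between 11.5 and 13.5 dpc in WT limbs (adjusted p = 0.00969). In the same comparison 1452757_s_at differed by 0.31 (adjusted p = 0.0590), and 1428361_x_at, close to the top of the scale, by 0.24 (adjusted p = 0.123). The adult genes Hba-a2, Hbb-b2 and Hba-a1 have probe sets of their own, and these were dim, with averages of 6.61, 5.86 and 4.63 in that order over the 12 arrays, and between 13.5 and 11.5 dpc in WT limbs Hbb-b2 was called (0.61, adjusted p = 0.0443). Hba-a2 was called lower between 12.5 and 11.5 dpc (-0.88, adjusted p = 0.00167) and higher between 13.5 and 12.5 dpc (0.71, adjusted p = 0.00253), and Hba-a1 was called in no comparison of WT stages. The bright α-type probe sets did not share that fall between 12.5 and 11.5 dpc in WT limbs. There 1417714_x_at rose by 0.65 (adjusted p = 0.00690) and 1452757_s_at by 0.43 (adjusted p = 0.0111), and 1428361_x_at differed by 0.06.

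Between genotypes, none of the 8 members was called by limma at any stage or on the mean of the 3 stages. The share of all genes called was 0.0165% at 11.5 dpc, 0.0385% at 12.5 dpc, 0.0275% at 13.5 dpc and 0.203% on the mean. The number of members with an unadjusted p under 0.05 was 0 at 11.5 and 12.5 dpc, 2 at 13.5 dpc and 1 on the mean. At 11.5 dpc differences ran between -0.05 (Klf1) and 0.18 (Epor), and at 12.5 dpc between -0.07 (Klf1) and 0.21 (Slc4a1). At 11.5 dpc the 95% interval of the Hbb-bh1 difference ran between -1.31 and 1.36, since its spread was pooled over all stages, and that of Hbb-y between -0.19 and 0.30.

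At 13.5 dpc all 8 differences between KO and WT limbs were positive, with a median of 0.44 against -0.01 over all genes. Hbb-bh1 was 2.97 ± 0.60 higher by its group means (7.82-fold, 95% interval 1.63 to 4.31, adjusted p = 0.253), the highest difference of all 18193 genes at that stage, but it did not pass. Hba-x differed by 0.82 ± 0.28 (adjusted p = 0.721), Slc4a1 by 0.69, Klf1 by 0.65, Gata1 by 0.23, Epor by 0.16, Alas2 by 0.07 and Hbb-y by 0.03. Both KO arrays lay above both WT arrays for 3 members, Hbb-bh1, Hba-x and Epor, and for 11.6% of all genes. At 11.5 dpc this held for Epor alone and for 12.8% of all genes.

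The differences of Hbb-bh1, Hba-x, Klf1 and Slc4a1 at 13.5 dpc depended on KO replicate 2. It was the highest of the 4 arrays for 6 of 8 members, against 33.8% of all genes, and its Hbb-bh1 level of 12.91 was within the range of 12.5 dpc. Without it the Hbb-bh1 difference was 1.75 (adjusted p = 0.546, and 0.0643 with KO replicate 2 of 12.5 dpc left out too), that of Hba-x 0.30, of Klf1 0.10 and of Slc4a1 0.03. Without KO replicate 1 instead, Hbb-bh1 differed by 4.18 (adjusted p = 0.00540) and Hba-x by 1.34 (adjusted p = 0.0392), and both were called. In each of these fits the single KO array is assumed to vary like the other groups. At 12.5 dpc KO replicate 2 was the highest array for 8 of 8 members, against 25.4% of all genes, and KO replicate 1 was the lowest for 7 of 8, against 26.1% of all genes.

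**Figure D3:**
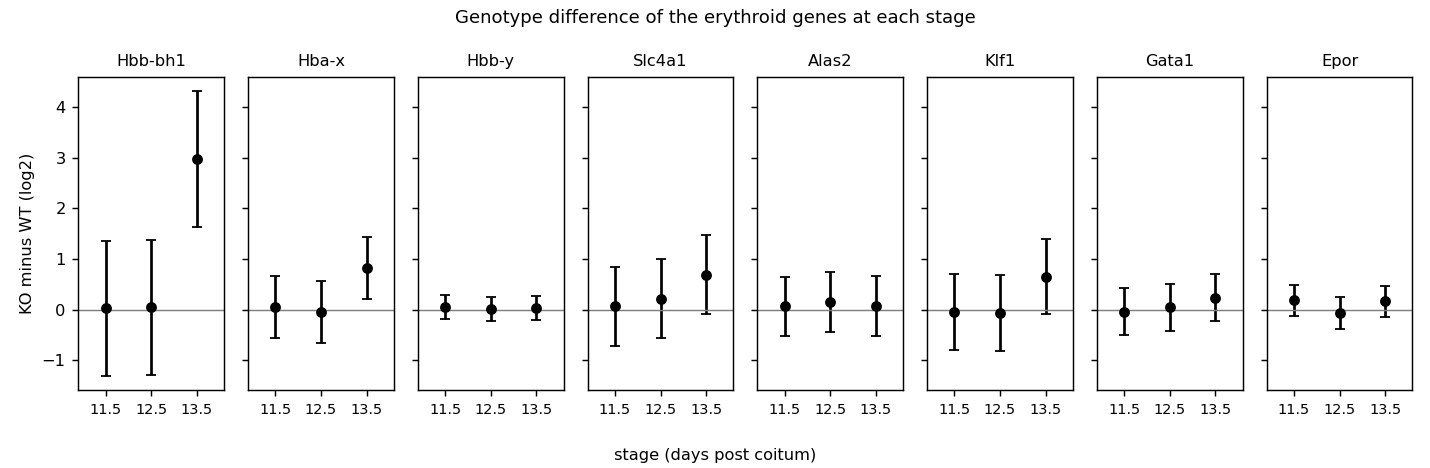
KO minus WT difference (log2) of the 8 measured erythroid genes at each stage; points are limma estimates and bars are 95% intervals. Hbb-bh1 at 13.5 dpc is highest, at 2.97 with an interval from 1.63 to 4.31, and none of the 24 differences passed after adjustment over all genes.

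**Figure D4:**
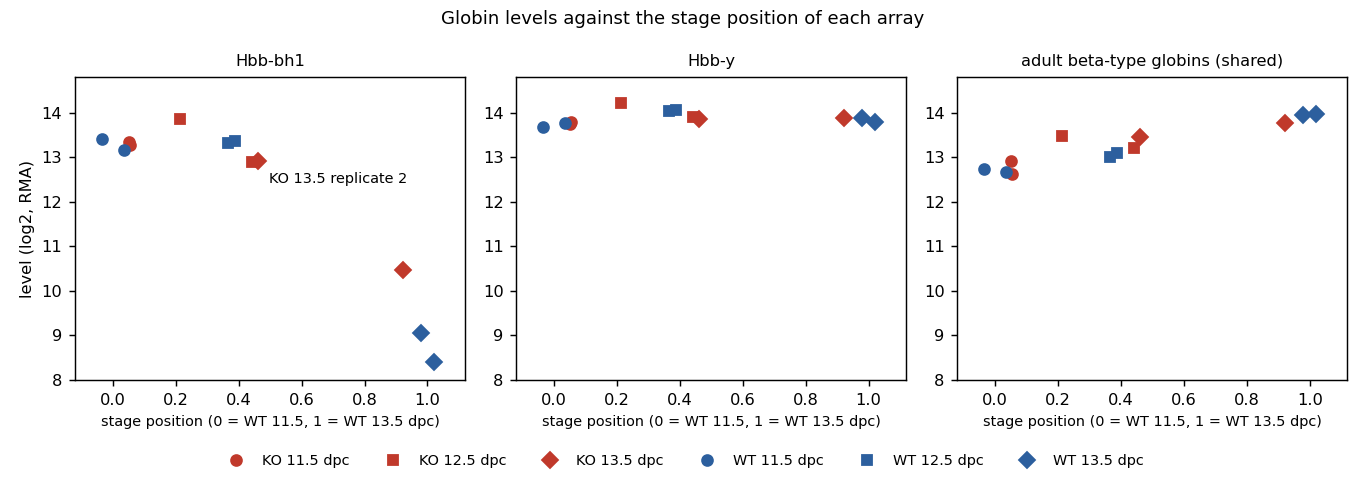
Levels (log2, RMA) of Hbb-bh1, Hbb-y and the probe set shared by adult β-type globin genes, against the median stage position of each of the 12 arrays over 2726 other genes, where 0 is the WT mean at 11.5 dpc and 1 that at 13.5 dpc; red is KO, blue is WT. KO replicate 2 of 13.5 dpc lies at 0.461 with an Hbb-bh1 level of 12.91, beside the arrays of 12.5 dpc.

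The change of the KO difference between stages was tested directly. The Hbb-bh1 difference at 13.5 dpc exceeded that at 11.5 dpc by 2.94 ± 0.85 and that at 12.5 dpc by 2.92 ± 0.85, and neither passed (adjusted p = 1 and 0.468). For Hba-x the values were 0.77 and 0.87 (adjusted p = 1 and 0.584). In both tests limma called 0 members and 0 of the 18193 genes (0%), while 1 and 2 members and 377 and 1546 genes had an unadjusted p under 0.05.

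Other red cell genes, from lists of the same pathway, were then read in the comparison of WT limbs of 13.5 and 11.5 dpc, with the 9.27% of all genes that fell and the 5.74% that rose as background. Of 18 red cell membrane and skeleton genes, 8 fell and 1 rose, with a median of -0.47. Rhag, the Rh-associated glycoprotein, fell by 2.53, with levels of 4.15 and 5.82 in KO limbs and 3.89 and 3.91 in WT limbs at 13.5 dpc. Ermap, a red cell adhesion protein, fell by 1.45, Icam4 by 1.38, Rhd by 1.18 and Kel by 1.09, the last 2 being blood group antigens. The member that rose was the water channel Aqp1 (2.28), which endothelium also makes. The brightest of the list, Bsg and Slc2a1, are made by most cells and were not called.

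Of 19 erythroid enzymes and late erythroid genes, 4 fell and none rose. Hemgn, a nuclear protein of blood progenitors and red cells, had the largest fall of the listed genes other than Hbb-bh1. It read 8.65 and 8.79 in KO limbs and 8.58 and 8.61 in WT limbs at 11.5 dpc, 6.90 and 9.54 in KO limbs and 7.38 and 8.04 in WT limbs at 12.5 dpc, and 5.49 and 8.22 in KO limbs and 4.55 and 4.60 in WT limbs at 13.5 dpc. It fell by 4.02 ± 0.86 in WT limbs (adjusted p = 0.0157), and its KO difference at 13.5 dpc was 2.28 (adjusted p = 0.762). Car2, carbonic anhydrase 2, fell by 1.61, the amino acid transporter Slc38a5 by 1.39 and Mgst3 by 0.81.

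Of 20 erythroid transcription factors and cofactors, 6 fell and 3 rose, with a median of -0.19. Lmo2, which bridges GATA1 and TAL1, fell by 1.46, Nfe2 by 1.25 and the GATA1 cofactor Zfpm1 by 0.86. Sox6 rose by 1.00 and Gata2 by 0.80, and both also act outside blood. Of 12 heme synthesis genes, 2 fell (Abcb6 by 0.45 and Urod by 0.44) and none rose. Of 11 genes of iron uptake and handling, 6 fell, among them the transferrin receptor Tfrc by 0.82 and the mitochondrial iron importer Slc25a37 by 0.80, and 1 rose, the iron exporter Slc40a1, by 1.22. Of 13 genes of erythropoietin receptor signalling, 1 rose (Gab1, by 0.69) and none fell. Of 10 hypoxia response genes, 1 fell, Egln3, by 1.25.

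Markers of other blood cells were read beside these lists. Of 12 megakaryocyte and platelet genes, 9 fell and none rose, with a median of -0.61. The platelet chemokines Ppbp and Pf4 fell by 2.20 and 1.22 and the platelet receptor Clec1b by 2.15. Their summed linear level was 1214 and 1910 in KO limbs and 1190 and 1076 in WT limbs at 13.5 dpc, against 2091 and 2242 in KO limbs and 2260 and 2317 in WT limbs at 11.5 dpc. Of 14 macrophage genes, 1 rose (Maf, by 1.07) and none fell, and their summed linear level was 2386 to 2688 in KO arrays and 2342 to 2963 in WT arrays over the 3 stages. Of 10 granulocyte genes 1 fell (Mpo, by 0.57), but only 1 of the 10 had any group mean above 6.28, the median of all values. Most of that list was thus too dim to show a fall. Of 12 progenitor genes 2 rose and 1 fell. Of 14 endothelial genes, 3 fell and none rose, with a median of -0.14. Genes of tissues other than blood moved too: of 8 skeletal muscle genes 4 fell and none rose (median -0.90), of 8 cartilage genes 6 rose and none fell (median 1.30), and of 14 genes of limb mesenchyme and limb position 6 rose and 5 fell. The part of any of these in the results for the members was not tested.

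None of these lists held a gene called between KO and WT limbs at 13.5 dpc. KO replicate 2 was the highest of the 4 arrays for 11 of 12 heme synthesis genes, 14 of 18 membrane genes, 13 of 19 erythroid enzymes and 10 of 12 megakaryocyte genes. The share was 33.8% over all genes. It was also the highest for 11 of 20 erythroid transcription factors, 7 of 11 iron genes, 6 of 8 skeletal muscle genes, 6 of 10 hypoxia genes, 6 of 14 endothelial genes and 6 of 14 limb genes. The counts were 4 of 12 for progenitor genes, 3 of 13 for erythropoietin receptor signalling, 1 of 10 for granulocyte genes, and 0 of 14 macrophage, 0 of 8 cartilage and 0 of 3 adult globin genes.

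The genes whose levels were most like those of Hbb-bh1 over the 12 arrays, among 12095 genes above the median level, were Ppbp (Pearson r = 0.981), Fignl1 (0.973), Car2 (0.969), Pwp1 (0.969), Mre11a (0.968) and Pik3r3 (0.966). These points share arrays, stages and dissection, so r is a description. Over deviations from the mean of each stage, the most alike were Hsd11b2 (0.991), Asb4 (0.99), Shh (0.97), Fndc3c1 (0.967), Frzb (0.965) and Mapk12 (0.96). Shh, the signal of the posterior limb bud, read 6.60 and 7.60 in KO limbs and 5.85 and 5.68 in WT limbs at 13.5 dpc. Without KO replicates 2 of 12.5 and 13.5 dpc, r was 0.79 to 0.98 for these 6.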

How the data were processed

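The authors deposited 1 table of log2 expression values with 45101 probe sets, and the submitters' processing notes name RMA for them, with no version. Between arrays, the values at any rank differed by at most 0.242, so the columns were already on a common scale and were not renormalized for the main result. The platform annotation named 1 gene for 34945 probe sets, several genes for 932 and none for 9160, and 34741 of the first were found in RefSeq with no symbol changed. The brightest probe set by mean level stood for each gene. A model with 6 group means was fitted with limma 3.58.1 in R 4.3.3 (6 residual and 4.22 prior degrees of freedom), with Benjamini-Hochberg adjustment over all 18193 genes and a threshold of 0.05. No depth exists for arrays; 2 arrays per group limit the precision, and labels say that duplicates came from different embryos. The members and the lists of other genes were chosen with earlier results of these data known. All measured members are named; of the other lists, those called in WT limbs between 13.5 and 11.5 dpc, the brightest, and the 6 genes most like Hbb-bh1 by Pearson correlation were eligible. The labels do not say that replicate numbers pair KO and WT samples, so no pairing was used. Samples with the same replicate number had correlations of 0.187, -0.12 and -0.087 at the 3 stages. Alternatives covered normalization, probe set choice, dim genes, array weights, prior, fitted arrays, replicate block and arrays left out. The fit was also checked on simulated data with known differences and independent noise, with the same spread of a gene in all groups. That check does not cover arrays that stand apart from their group. Promoter windows and neighbouring genes came from RefSeq tables of GRCm38.p6; no source used here names the build of the array annotation.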

Additional observations from a re-analysis of the deposited data

How the results depend on the processing

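Counts of the 8 members called depended mostly on which arrays entered. Leaving out each of the 12 arrays in turn gave, between 13.5 and 11.5 dpc in WT limbs, 1 to 5 (5 in the fit reported), between 13.5 and 12.5 dpc 1 to 4 (4), and between 12.5 and 11.5 dpc 0 to 1 (0). In KO limbs the ranges were 0 to 4 between 13.5 and 12.5 dpc (1), 0 to 4 between 13.5 and 11.5 dpc (0) and 0 to 1 between 12.5 and 11.5 dpc (0). For KO against WT they were 0 to 2 at 13.5 dpc and 0 to 1 on the mean of the stages, and 0 to 1 for the change of the KO difference between 11.5 and 13.5 dpc. Without both KO replicates 2, a single KO array is left at 12.5 and at 13.5 dpc. More members were then called between WT limbs of 12.5 dpc and either other stage, and in each comparison between KO stages. More of all genes were called in each of these comparisons too. Whether the gain was larger among the members than among all genes was not tested. Hbb-y alone brought the WT count between 12.5 and 11.5 dpc to 1 under renewed quantile normalization, without dim genes, with array weights, with an intensity trend and robust prior, and with only the arrays compared. The KO count between 12.5 and 11.5 dpc was 1 with the trend and robust prior. The KO count between 13.5 and 12.5 dpc was 0 with the mean of the probe sets, with array weights, with the trend and robust prior, and with only the arrays compared. The cause was not tested.

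Among KO differences that never passed, signs turned when 1 array was left out: on the mean of the stages the values ran between -0.024 and 0.085 for Hbb-y, -0.032 and 0.22 for Alas2, -0.0066 and 0.36 for Klf1, and -0.018 and 0.17 for Gata1. At 13.5 dpc they ran between -0.011 and 0.073 for Hbb-y, -0.30 and 0.44 for Alas2, and -0.029 and 0.50 for Gata1. Without both KO replicates 2, the means of the stages were -0.019 for Hbb-y, -0.13 for Alas2, -0.14 for Klf1 and -0.11 for Gata1, and the 13.5 dpc values were -0.30 for Alas2 and -0.029 for Gata1.

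With the replicate number as a block, 0 members were called in every genotype comparison, as without it, and Hbb-bh1 at 13.5 dpc had a difference of 2.97 (adjusted p = 0.542). The labels do not say that the numbers pair the samples. No paired analysis was possible because stages share no embryos, for the comparisons between stages. The number of all genes called moved further, and most when 1 array was left out. Between 13.5 and 11.5 dpc in WT limbs it was 2731 (170 to 3738 without 1 array, 1947 to 6529 in other settings, 5044 without both KO replicates 2), with the lowest counts without each WT array of these stages. In KO limbs it was 188 (2 to 1843, 41 to 481 and 3569), highest without KO replicate 2 of 13.5 dpc. Between 13.5 and 12.5 dpc it was 4598 in WT limbs (1663 to 5783, 3882 to 5928 and 6940) and 3382 in KO limbs (1554 to 3864, 8 to 3765 and 4489). Between 12.5 and 11.5 dpc it was 3603 in WT limbs (814 to 4726, 3064 to 4919 and 5950) and 3054 in KO limbs (462 to 3493, 0 to 3356 and 4545). For KO against WT it was 3 at 11.5 dpc (0 to 5, 0 to 14 and 7), 7 at 12.5 dpc (1 to 515, 1 to 21 and 94), 5 at 13.5 dpc (0 to 56, 0 to 14 and 11) and 37 on the mean (6 to 434, 6 to 40 and 38). The counts of 515 and 434 came without KO replicate 1 of 12.5 dpc and that of 56 without KO replicate 1 of 13.5 dpc.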
